A study of Mus musculus with 13 samples.

Results

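The collagen genes of mouse parametrial white adipose tissue (pmWAT), the visceral fat around the uterus, are described here. They were taken by symbol, as every protein-coding gene named Col, a number, a and a number, with at least 30 reads summed over all 13 libraries. Of the 33618 genes in the count table, 44 carried such a symbol and 41 reached 30 reads. *Col26a1* with 18 reads, *Col9a2* with 23 and *Col9a1* with 4 did not. The 41 genes comprised 11 fibrillar chains, the 6 chains of type IV collagen of basement membranes, and 24 chains of other types.

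Bulk mRNA sequencing was done on whole pmWAT of female mice, with 1 library per mouse. The question was how loss of lamin A/C from mature adipocytes alters the tissue at an early time, before its morphology changes. Control mice were *Lmna* fl/fl (n = 7) and carried loxP sites around exons 10 and 11 of both *Lmna* alleles but no Cre. The *Lmna* iADKO mice (n = 6) were *Lmna* fl/fl with 1 *Adipoq*-CreERT2 transgene, a recombinase that tamoxifen activates and that the adiponectin promoter confines to adipocytes, so fibroblasts, endothelial cells and macrophages of the same depot kept the gene. Mice of both genotypes received tamoxifen at 50 mg/kg for 5 days at 12 to 14 weeks of age, and tissue was taken 2 weeks later. The controls therefore account for tamoxifen but not for the CreERT2 protein.

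Collagens are extracellular proteins built from 3 chains that wind into a triple helix, which needs glycine, the smallest amino acid, at 1 of every 3 positions. Fibrillar collagens pack into the rope-like fibers of the interstitium, type IV collagen forms the sheet-like network of basement membranes, and the other types link, coat or anchor these structures. Each adipocyte is wrapped in a basement membrane and held in a mesh of type I, III and VI collagen, which in adipose tissue is made largely by fibroblasts, with type IV chains also made by adipocytes and endothelial cells.

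The repeat is written into the genes, and its unbroken length and exon pattern set the fibrillar genes apart from the rest. The exons below were read from the GRCm39 genome along the canonical GENCODE transcripts. They belong to the 3 chains of the main interstitial fibrils, to the genes that were higher (*Col27a1* and *Col28a1*) and to the type IV pair that includes the gene that was lower (*Col4a2*). Capitals mark glycine codons (GGN) that stand in step, 1 per triplet of codons.
Col1a1 exon 8 (chr11:94830730-94830783, plus strand): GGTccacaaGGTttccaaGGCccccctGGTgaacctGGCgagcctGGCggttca
Col1a2 exon 8 (chr6:4515481-4515534, plus strand): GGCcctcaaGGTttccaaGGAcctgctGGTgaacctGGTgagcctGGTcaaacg
Col3a1 exon 6 (chr1:45364520-45364573, plus strand): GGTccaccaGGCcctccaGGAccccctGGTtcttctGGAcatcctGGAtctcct
Col27a1 exon 4 (chr4:63150029-63150082, plus strand): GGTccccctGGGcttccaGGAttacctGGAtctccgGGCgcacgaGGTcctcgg
Col28a1 exon 6 (chr6:8166662-8166715, minus strand): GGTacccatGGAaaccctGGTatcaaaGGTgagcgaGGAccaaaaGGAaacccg
Col4a1 exon 21 (chr8:11285095-11285259, minus strand): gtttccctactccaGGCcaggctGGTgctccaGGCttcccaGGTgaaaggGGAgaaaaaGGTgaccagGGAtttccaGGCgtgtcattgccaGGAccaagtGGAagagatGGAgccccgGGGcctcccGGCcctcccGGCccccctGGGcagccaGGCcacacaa
Col4a2 exon 20 (chr8:11465926-11466075, plus strand): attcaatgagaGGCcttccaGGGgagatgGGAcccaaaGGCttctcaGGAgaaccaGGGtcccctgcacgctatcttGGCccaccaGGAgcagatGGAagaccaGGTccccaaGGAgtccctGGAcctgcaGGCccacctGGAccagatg
The exons were chosen for their pattern, so they illustrate it and do not compare the classes. The first 5 are, in each gene, the first exon of 54 bp that is in step throughout, and each encodes 6 complete triplets. *Col28a1* has 2 inner coding exons of 54 bp, against 21 in *Col1a1*. Exon 8 of *Col1a1* shared 42 of its 54 bases with exon 8 of *Col1a2*, 35 with the *Col3a1* exon and 28 with the *Col27a1* exon. The type IV exons were chosen for a break between 2 runs of triplets. In them the glycine codons fall out of step once, and the runs are separated by codons outside the repeat.

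Over whole coding sequences, the longest unbroken run of triplets held 337 to 344 triplets in 9 of the 11 fibrillar genes, but 217 in *Col27a1* and 216 in *Col24a1*, whose runs of at least 5 triplets summed to 329 and 327, against 353 to 364 in the other 9. It was 39 to 66 triplets in the type IV genes, which carried 22 to 27 separate runs of at least 5 triplets each, and 28 to 113 in the other types. Exons of 45, 54, 99, 108 or 162 bp, the 54-bp family, made up 70.3% to 86.0% of the inner coding exons of fibrillar genes, 16.0% to 25.6% of those of type IV genes and 2.60% to 60.7% of those of the other types. Of the genes of other types, *Col22a1* (60.7%) and *Col9a3* (53.3%), both of collagens that bind to fibrils, came nearest to the fibrillar pattern. The network collagen genes *Col8a1*, *Col8a2* and *Col10a1* have 2 coding exons each and no inner one.

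**Figure D1:**
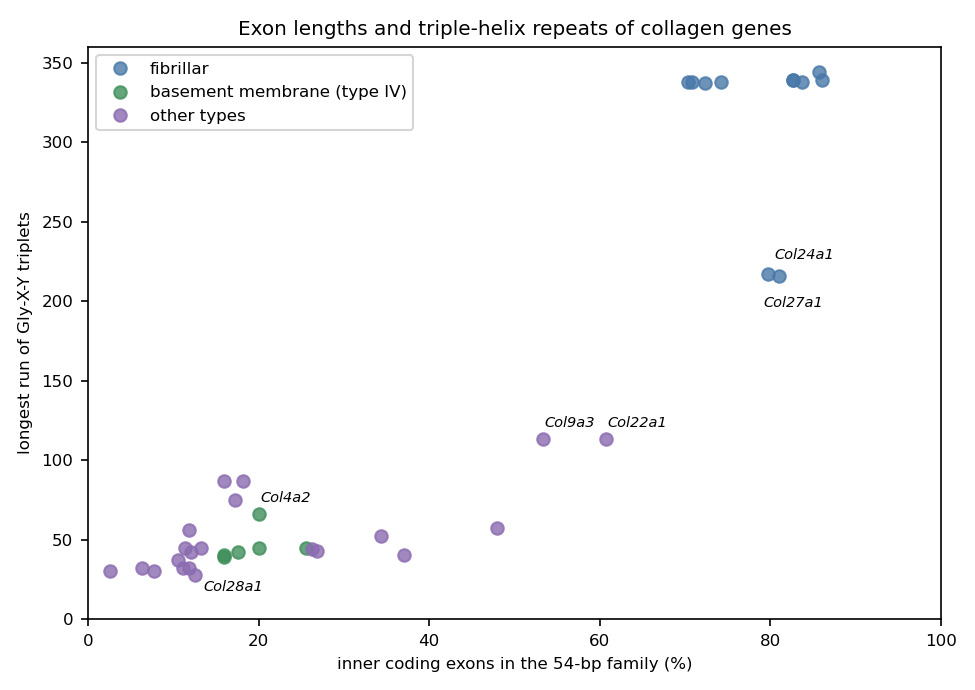
Share of inner coding exons in the 54-bp family of 45, 54, 99, 108 or 162 bp (x axis, %) against the longest run of Gly-X-Y triplets (y axis) for each collagen gene with inner coding exons, colored by class. The fibrillar genes lie at 70.3% or more, with *Col27a1* and *Col24a1* at 217 and 216 triplets below the others, and the 6 type IV genes lie at 39 to 66 triplets.

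The reads counted on genes ran from 18854223 to 19776491 per mouse. Levels are given as CPM, that is counts relative to the scaled library total, with the trimmed-mean (TMM) factors of edgeR, which were 0.892 to 1.02 in fl/fl and 1.05 to 1.102 in iADKO. *Lmna* itself was at 74.7 to 98.5 CPM in fl/fl and 80.1 to 109 CPM in iADKO and was not lower (log2 fold change 0.19, standard error 0.0789, adjusted p = 0.0785). The whole gene was counted, so the floxed exons could not be seen apart, and every direction below rests on the labels of the libraries. All 9 adipocyte markers were lower in libraries labelled iADKO (summed level 16119 to 23487 CPM in fl/fl, 9690 to 16270 CPM in iADKO). Of 9 macrophage markers, 8 were higher (1401 to 2692 CPM and 1912 to 3274 CPM). Of 9 fibroblast and progenitor markers, 1 (*Icam1*) was higher (917 to 1155 CPM and 1053 to 1226 CPM). Of 9 mural and smooth muscle markers 1 (*Cspg4*) was lower by edgeR's test (4 higher and 1 lower at an unadjusted p under 0.05, 2 and 1 with DESeq2), with a summed level of 838 to 1494 CPM and 947 to 2326 CPM. Of 5 tested epithelial markers 2 were higher by edgeR's test, 3 with DESeq2 and 0 with limma on the deposited log2 values. The summed epithelial level was 11.4 to 53.96 CPM in fl/fl and 21.8 to 270.3 CPM in iADKO, with the highest value in iADKO 6. Of 8 mesothelial and 7 skeletal muscle markers 0 passed edgeR's test (2 and 0 at an unadjusted p under 0.05, 1 and 0 with DESeq2). Over all tested genes 14.1% were higher and 16.3% lower by edgeR's test. None of the markers was at 0 in every library. The libraries fl/fl 5 and iADKO 6 each lay nearest to the other genotype on the first principal component, which held 37.5% of the variance. There fl/fl 5 (18.57) lay within the iADKO range (6.515 to 36.9) and past iADKO 6 (6.515), with the other controls at −46.56 to −7.625. Its adipocyte sum (16119 CPM) was below that of iADKO 6 (16270 CPM), and its macrophage sum (2692 CPM) lay within the iADKO range. In bulk tissue, fewer cells of a type and less RNA per cell cannot be told apart.

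Collagen genes held 1.09% ± 0.123 (SD, n = 7) of all counts in fl/fl and 1.22% ± 0.218 (SD, n = 6) in iADKO, a difference within the spread between mice. The fibrillar genes took 52.7% ± 6.09 of these counts in fl/fl and 54.2% ± 3.23 in iADKO, the type IV genes 18.9% ± 3.08 and 16.0% ± 1.78, and the other types 28.4% ± 3.25 and 29.8% ± 1.63. *Col1a1*, *Col1a2* and *Col3a1* alone made up 43.4% ± 7.26 and 46.0% ± 3.58. The lowest share of collagen in all counts, 0.806%, was that of iADKO 6, and the highest, 1.40%, that of iADKO 2. Scaled with TMM factors, the collagen genes summed to 11647 ± 1085 CPM (SD) in fl/fl and 11309 ± 1933 CPM in iADKO. The direction of the total thus depended on scaling.

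Levels were compared between genes as CPM per kb of merged exons. In fl/fl, *Col3a1*, the sole chain of type III collagen, was highest with 270.0 ± 54.1 (SD, n = 7), followed by *Col4a1* with 178 ± 28.3, *Col1a1* with 155 ± 40.9 and *Col6a1* with 148 ± 20.7. *Col1a1* lay within 1 of its own SD of both *Col4a1* and *Col6a1*, whereas *Col4a1* and *Col6a1* were further apart than the SD of either. *Col4a2* (109.5 ± 19.95), *Col1a2* (102 ± 23.1) and *Col15a1* (99.9 ± 26.1) came next and likewise overlapped. *Col18a1* was at rank 14 with 22.5 ± 3.01 CPM per kb, and *Col16a1* below it was at 8.60 ± 1.33. In iADKO, *Col3a1* was again first with 284 CPM per kb, and *Col6a1* (159) and *Col1a1* (153) stood before *Col4a1* (147). The order within the leading genes moved with the choice of length. The merged exons of *Col1a2*, for example, span 12650 bp and its canonical transcript 5359 bp. Per kb of canonical transcript, *Col3a1* in fl/fl was at 499 CPM, *Col1a2* at 239.8, *Col6a1* at 211, *Col4a1* at 201 and *Col1a1* at 171.

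**Figure D2:**
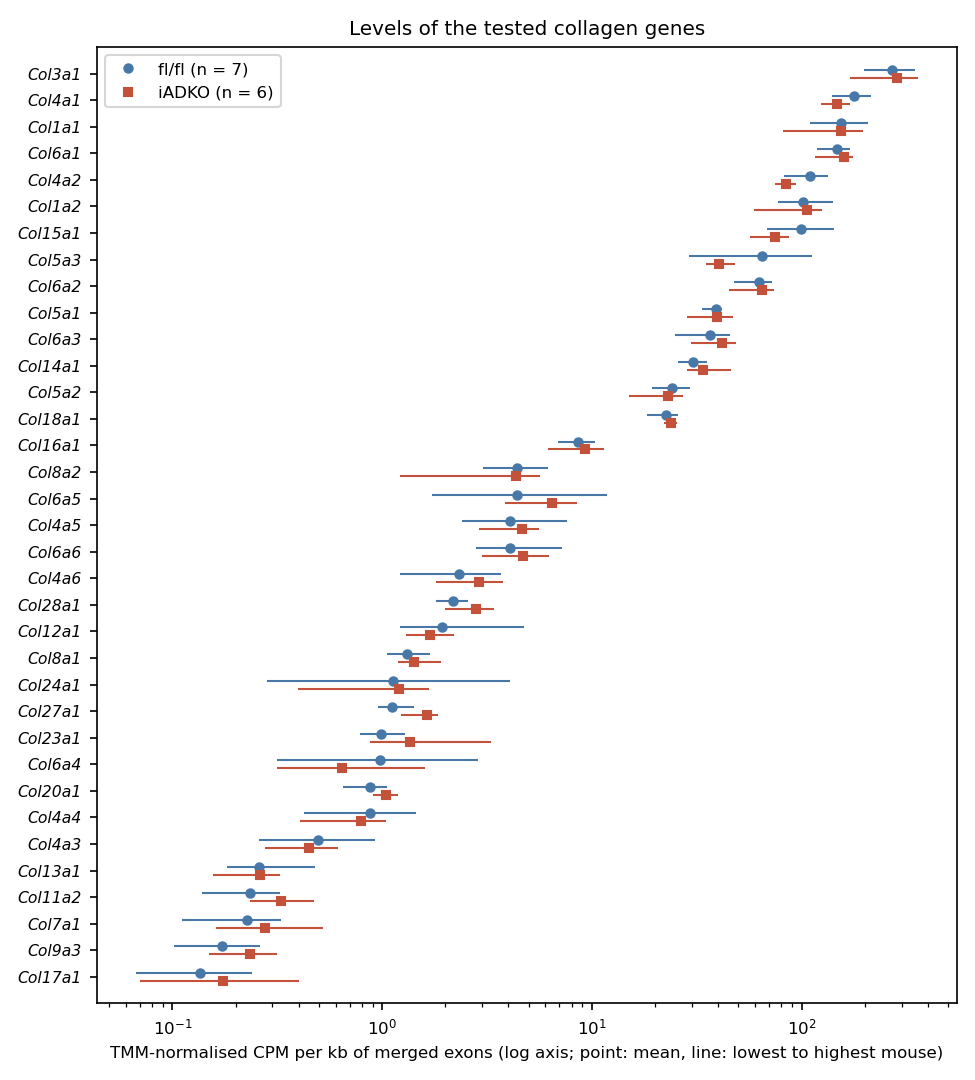
Mean level of each of the 35 tested collagen genes in CPM per kb of merged exons (log x axis) in fl/fl (circles, n = 7) and iADKO (squares, n = 6), with lines from the lowest to the highest mouse. Levels run from 270.0 CPM per kb for *Col3a1* to 0.136 for *Col17a1* in fl/fl, and the lines of the genotypes overlap for each gene.

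Of the 41 genes, 35 passed the filter on low counts and were compared between genotypes by edgeR's quasi-likelihood test, with p-values adjusted by the Benjamini-Hochberg method over all 16753 genes tested and a threshold of 0.05. *Col27a1* and *Col28a1* were higher and *Col4a2* was lower in libraries labelled iADKO. These are 3 of 35 (8.57%), whereas 30.5% of all tested genes passed (14.1% higher, 16.3% lower). The log2 fold changes of the 35 had a median of 0.09, against 0.03 over all genes, and ran from −0.69 to 0.56, with 24 above 0 and 11 below. Over all 16753 genes, 9158 were above 0 and 7595 below. At an unadjusted p under 0.05, 3 were higher and 4 lower, against 3585 and 3560 of all 16753 genes. The 95% interval of the log2 fold change covered 0 in 28 of the 35, that is in all but the genes at an unadjusted p under 0.05. In none of the 35 did all iADKO mice lie on one side of all fl/fl mice, which was so for 6.64% of the tested genes. Without fl/fl 5 and iADKO 6, 9 of the 35 passed (42.9% of all genes did). Scaling to total counts without TMM factors raised the median log2 fold change of all genes to 0.24, and 9 collagen genes were then higher and 0 lower (51.8% of all genes called).

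**Figure D3:**
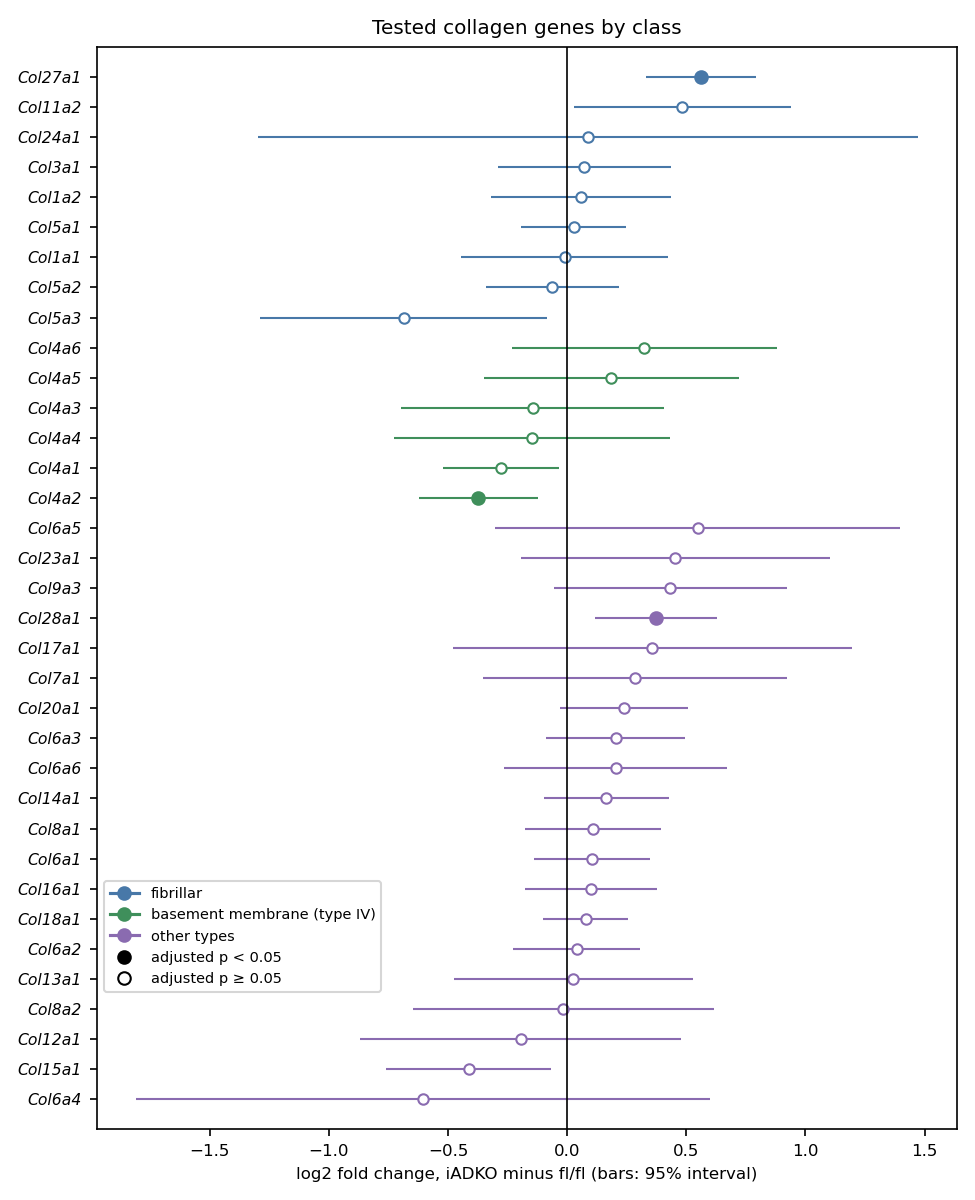
Log2 fold change (iADKO minus fl/fl, x axis) of the 35 tested collagen genes with 95% intervals, grouped by class, with filled points for an adjusted p under 0.05. *Col27a1* (0.56), *Col28a1* (0.37) and *Col4a2* (−0.37) are filled, and the intervals of *Col1a1*, *Col1a2* and *Col3a1* are centered near 0.

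Of the 9 tested fibrillar genes, 1 was higher and 0 were lower by edgeR's test, with a median log2 fold change of 0.06, which turned to −0.0067 without fl/fl 6 and to −0.0059 without iADKO 3. At an unadjusted p under 0.05, 2 were higher and 1 lower, and DESeq2's Wald test called 1 higher and 1 lower. *Col1a1* and *Col1a2* encode the chains of type I collagen, the main load-bearing fibril. *Col1a1* was at 719, 933 and 1368 CPM (lowest, median and highest mouse) in fl/fl and at 533, 1028 and 1289 CPM in iADKO. *Col1a2* was at 979, 1179.7 and 1779 CPM in fl/fl and at 750.5, 1405 and 1579 CPM in iADKO. The genotypes overlapped widely, and iADKO 6 was the lowest mouse for both chains. The log2 fold changes were −0.01 for *Col1a1* (95% interval −0.45 to 0.42, adjusted p = 0.972) and 0.06 for *Col1a2* (−0.32 to 0.43, adjusted p = 0.828). These values averaged over mice that differed more than the genotypes did. The deposited columns carry numbers, called library numbers here, whose meaning is not given in the sources used. Numbers 706 and 707 belong to fl/fl mice only, and 765, 974 and 975 to iADKO mice only. The runs 722 to 727 and 747 to 750 hold both genotypes. In the libraries numbered 722 to 727, which include fl/fl 5 and iADKO 6, the log2 ratio of *Col1a1* between 2 iADKO and 2 fl/fl mice was −0.62. In those numbered 747 to 750 it was 0.59 between 1 iADKO and 3 fl/fl mice.

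*Col3a1* was at 2034, 2548 and 3558 CPM in fl/fl and at 1749, 3062 and 3687 CPM in iADKO. Its log2 fold change was 0.07 (95% interval −0.29 to 0.44, adjusted p = 0.771). Type V is a minor collagen on which type I fibrils nucleate. Its *Col5a1* was at 293, 345 and 366 CPM in fl/fl and 248, 352 and 412 CPM in iADKO (log2 fold change 0.03, adjusted p = 0.862). *Col5a2* was at 216, 259 and 330.1 CPM in fl/fl and 168, 273 and 305 CPM in iADKO (−0.06, adjusted p = 0.742). Neither chain differed beyond the spread between mice.

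*Col5a3*, the remaining type V chain, had the lowest log2 fold change of all 35. It was at 200.4, 359 and 776 CPM in fl/fl and at 242, 277 and 331 CPM in iADKO. The control mice spread over a wide range that held all iADKO mice, with fl/fl 5 the lowest of all 13. The log2 fold change was −0.69 (standard error 0.28, 95% interval −1.29 to −0.08) and did not pass the threshold (adjusted p = 0.0786). Without fl/fl 5 it was −0.81 and passed (adjusted p = 0.0188).

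*Col27a1*, a fibrillar collagen known from cartilage, had the highest log2 fold change and the lowest adjusted p of the 35. It was at 12.5, 14.5 and 18.4 CPM in fl/fl and at 16.0, 21.9 and 24.1 CPM in iADKO. In 5 of 6 iADKO mice it lay above the highest control, and the exception was iADKO 6. The log2 fold change was 0.56 (standard error 0.11, 95% interval 0.33 to 0.79, adjusted p = 0.00222). It passed with each mouse left out in turn (highest adjusted p = 0.00732). It did not pass with the run of library numbers as a block (log2 fold change 0.51, adjusted p = 0.112). That fit compares the genotypes only within runs that hold both, and 0.322% of all genes passed in it. Of 6 cartilage markers, 2 were detected well enough to be tested and 0 passed edgeR's test, with 1 higher at an unadjusted p under 0.05 and 1 called higher by DESeq2 and by limma on the deposited log2 values (summed level 2.37 to 7.25 CPM in fl/fl and 4.47 to 6.76 CPM in iADKO). Their part in the *Col27a1* values was not tested.

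*Col11a2*, a chain of the cartilage type XI collagen, was at 1.03, 1.83 and 2.43 CPM in fl/fl and 1.75, 2.23 and 3.54 CPM in iADKO (log2 fold change 0.48, adjusted p = 0.0985). *Col24a1*, the closest relative of *Col27a1*, was at 2.15, 4.08 and 30.9 CPM in fl/fl and 3.04, 11.3 and 12.7 CPM in iADKO. Its highest value was that of fl/fl 5, and its 95% interval of −1.297 to 1.47 was the widest of the 35. *Col2a1* (32 reads over all mice) and *Col11a1* (72 reads), the other cartilage chains, were too low to test.

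**Figure D4:**
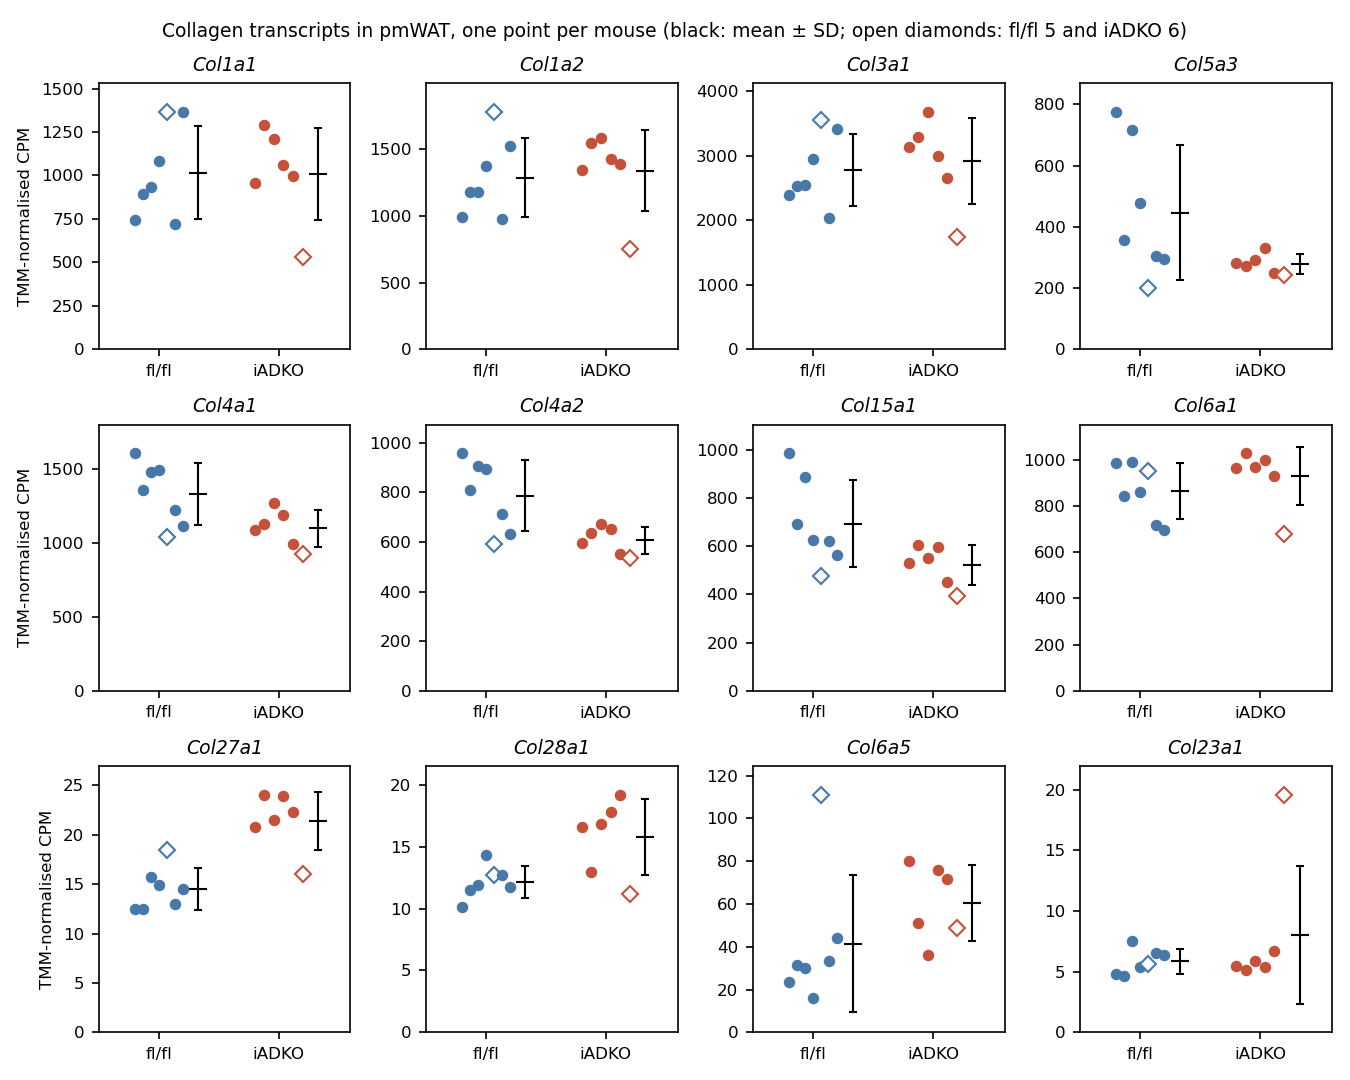
TMM-normalised CPM of 12 collagen genes (y axes from 0), with 1 point per mouse in fl/fl and iADKO and the mean ± SD in black. Open diamonds mark fl/fl 5 and iADKO 6. In *Col27a1* 5 of 6 iADKO mice lie above all controls, in *Col5a3* the controls spread from 200.4 to 776 CPM, and in *Col23a1* 1 iADKO mouse stands at 19.59 CPM.

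Type IV chains assemble as the pair *Col4a1* and *Col4a2*, found in nearly all basement membranes, or in the tissue-restricted sets of *Col4a3*, *Col4a4*, *Col4a5* and *Col4a6*. All 6 were tested, and by edgeR's test 0 were higher and 1 was lower, with a median log2 fold change of −0.15. The median turned to 0.048 without fl/fl 4 and to 0.057 when scaled to total counts. At an unadjusted p under 0.05, 0 were higher and 2 lower, as with DESeq2. *Col4a2* was at 592, 809.7 and 958 CPM in fl/fl and at 536, 616 and 672 CPM in iADKO. In 2 iADKO mice it lay below the lowest control, and in none above the middle of the controls. The log2 fold change was −0.37 (standard error 0.12, 95% interval −0.62 to −0.12, adjusted p = 0.0265). *Col4a1* was at 1038, 1355 and 1606 CPM in fl/fl and at 923, 1106 and 1266 CPM in iADKO, with a log2 fold change of −0.28 (95% interval −0.52 to −0.03) that did not pass (adjusted p = 0.0791). Without fl/fl 5, *Col4a1* passed as well (log2 fold change −0.32, adjusted p = 0.0251). *Col4a2* did not pass when fl/fl 1, fl/fl 3, fl/fl 4, iADKO 1 or iADKO 5 was left out (highest adjusted p = 0.0614), nor when scaled to total counts (log2 fold change −0.16, adjusted p = 0.193) or with the run of library numbers as a block (−0.40, adjusted p = 0.167). Within both runs of library numbers that hold mice of each genotype, the log2 ratio of *Col4a2* was below 0 (−0.32 and −0.49). Of 8 endothelial markers, 3 were lower (summed level 999 to 1375 CPM in fl/fl, 1040 to 1201 CPM in iADKO), as were all adipocyte markers. Over all genes 16.3% were lower. The part of endothelial cells or adipocytes in these values was not tested.

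The 4 remaining chains were lower in level and none passed. *Col4a3* was at 2.59, 4.66 and 9.18 CPM in fl/fl and 2.74, 4.88 and 6.13 CPM in iADKO, and *Col4a4* at 4.85, 9.72 and 16.6 CPM and 4.62, 9.60 and 12.0 CPM. *Col4a5* was at 22.4, 34.2 and 71.0 CPM in fl/fl and 27.0, 48.5 and 52.2 CPM in iADKO, and *Col4a6* at 9.66, 16.6 and 29.5 CPM and 14.4, 24.7 and 30.2 CPM. For *Col4a5* the top value was again fl/fl 5, where the summed level of 8 mesothelial markers was 828 CPM, against 383 to 717 CPM in the other controls. With fl/fl 5 and iADKO 6 left out, the log2 fold change of *Col4a5* was 0.49 (adjusted p = 0.0298).

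The type IV genes lie in pairs that face away from each other. On chromosome 8, *Col4a1* (11248423 to 11362826, minus strand) and *Col4a2* (11362471 to 11499287, plus strand) overlap by 356 bp at their 5′ ends. *Col4a4* and *Col4a3* on chromosome 1 overlap by 159 bp, and *Col4a6* and *Col4a5* on chromosome X are 1281 bp apart. The libraries were strand-specific, but whether reads were counted by strand is not given in the sources used here, so reads from the shared bases of *Col4a1* and *Col4a2* could have been lost or assigned to either.

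The ratio of chains within a mouse does not depend on scaling. The ratio of *Col4a1* to *Col4a2* counts in fl/fl 1 to 7 was 1.68, 1.67, 1.63, 1.67, 1.75, 1.71 and 1.76. In iADKO 1 to 6 it was 1.82, 1.77, 1.88, 1.82, 1.80 and 1.72. It was higher than the control mean in 6 of 6 iADKO mice and above every control in 5. The means were 1.70 ± 0.0484 (SD, n = 7) and 1.80 ± 0.0542 (SD, n = 6), a log2 difference of 0.09 (exact permutation test, two-sided, p = 0.00524, adjusted p = 0.0315 over 6 pairs). With single mice left out the adjusted p was 0.0152 to 0.0606, and the difference did not pass without fl/fl 1, 2, 3, 4 or 6 or without iADKO 3. The other 5 pairs did not pass (adjusted p = 0.355 to 0.400, exact permutation tests). The ratio of *Col1a1* to *Col1a2*, which join as 2 to 1 in type I collagen, was 0.785 ± 0.0526 in fl/fl and 0.749 ± 0.0480 in iADKO as counts. That of *Col3a1* to *Col1a1* was 2.77 ± 0.224 and 2.94 ± 0.308. That of *Col5a1* to *Col5a2* was 1.27 ± 0.160 and 1.34 ± 0.127, that of *Col6a1* to *Col6a2* 1.25 ± 0.0735 and 1.31 ± 0.0480, and that of *Col6a3* to *Col6a1* 0.510 ± 0.0810 and 0.543 ± 0.0352.

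**Figure D5:**
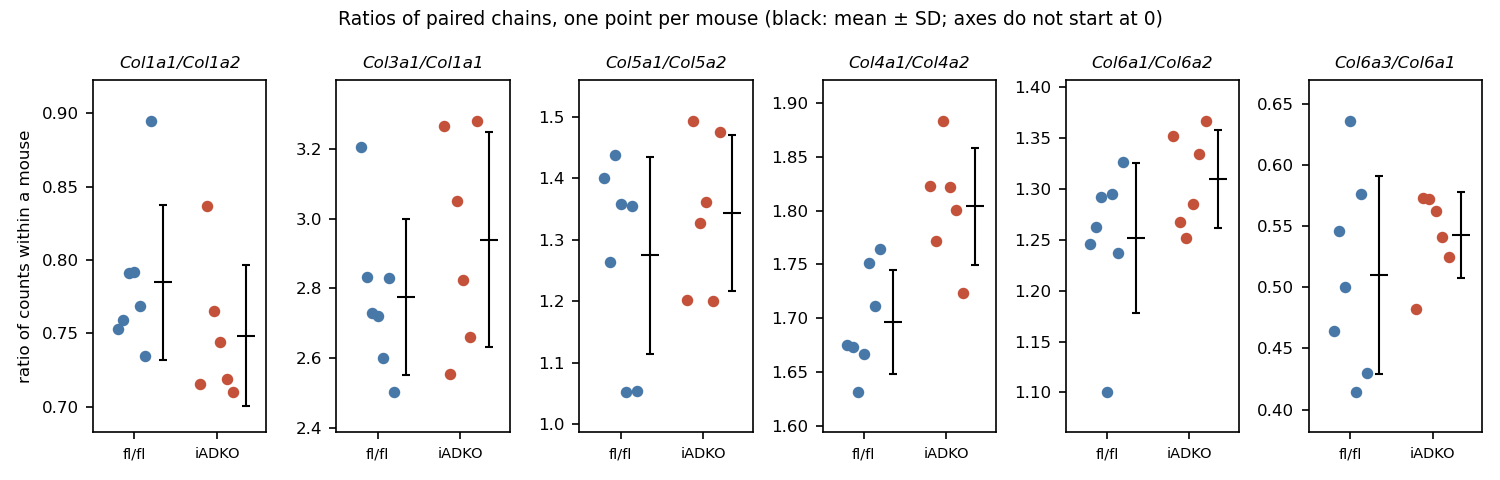
Ratio of read counts between paired collagen chains within a mouse (y axes, not from 0), with 1 point per mouse in fl/fl and iADKO and the mean ± SD in black. For *Col4a1*/*Col4a2*, 5 of 6 iADKO mice lie above the highest control (1.76), and the points of the other pairs overlap more widely.

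Of the 20 tested genes of other types, 1 was higher and 0 were lower by edgeR's test, with a median log2 fold change of 0.14. At an unadjusted p under 0.05, 1 was higher and 1 lower. DESeq2, which tested 39 collagen genes, called 2 genes of other types higher and 1 lower. The 2 were *Col28a1* and *Col25a1*, which is not among the 20. Type VI collagen forms beaded filaments close to the adipocyte surface. Its chain *Col6a1* was at 696, 861 and 990.3 CPM in fl/fl and 679, 968 and 1029 CPM in iADKO (log2 fold change 0.10, adjusted p = 0.503). *Col6a2* was at 525, 734 and 791 CPM and at 497, 745 and 812 CPM (0.04, adjusted p = 0.827). *Col6a3*, the largest chain and the source of the cleaved peptide endotrophin, was at 299, 458 and 548 CPM in fl/fl and 357, 529 and 589 CPM in iADKO (0.20, adjusted p = 0.269). The highest of these values was in iADKO for each chain, and the genotypes overlapped.

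The alternative type VI chains *Col6a4*, *Col6a5* and *Col6a6* lie next to each other on chromosome 9. *Col6a5* was at 16.3, 31.6 and 111 CPM in fl/fl and 36.2, 61.5 and 79.9 CPM in iADKO, and the value of 111 CPM was that of fl/fl 5. Its log2 fold change was 0.55 (95% interval −0.30 to 1.40, adjusted p = 0.306), and 1.03 without fl/fl 5 (adjusted p = 0.00682). *Col6a6* was at 27.1, 34.95 and 69.3 CPM in fl/fl and 28.8, 47.3 and 60.3 CPM in iADKO (0.20, adjusted p = 0.495). Without fl/fl 5 and iADKO 6 it was 0.48 and passed (adjusted p = 0.00818). The mesothelial sum in iADKO was 404 to 968 CPM, and its part in these values was not tested. *Col6a4* went the other way, at 2.68, 6.15 and 24.5 CPM in fl/fl and 2.69, 3.94 and 13.7 CPM in iADKO (−0.61, adjusted p = 0.427), with fl/fl 4 the highest.

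The multiplexins *Col15a1* and *Col18a1* sit at the border of basement membranes and release the fragments restin and endostatin. *Col15a1* was at 476, 627 and 986 CPM in fl/fl and at 393, 541 and 604 CPM in iADKO. In 2 iADKO mice it lay below the lowest control, and the log2 fold change of −0.41 (95% interval −0.76 to −0.07) did not pass (adjusted p = 0.0664). It passed without fl/fl 5 (−0.48, adjusted p = 0.0196). *Col18a1* was at 129, 149.5 and 182 CPM and at 156, 168 and 179 CPM (0.08, adjusted p = 0.498), with all iADKO mice inside the control range.

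Among collagens that attach to fibrils without forming them, 5 were tested and 0 passed edgeR's test, at an unadjusted p under 0.05 as well. *Col14a1* was at 181, 199 and 249.7 CPM in fl/fl and 199, 221 and 323 CPM in iADKO (0.16, adjusted p = 0.319). *Col12a1* was at 18.7, 21.4 and 72.7 CPM in fl/fl and 19.9, 26.6 and 33.8 CPM in iADKO (−0.19, adjusted p = 0.659), and 72.7 CPM was the value of fl/fl 7. Without that mouse the log2 fold change of *Col12a1* was 0.20. *Col16a1* (0.10), *Col20a1* (0.24) and *Col9a3* (0.43) had adjusted p of 0.574, 0.158 and 0.161.

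*Col28a1*, a collagen with von Willebrand factor A domains that in mice is known mainly from peripheral nerve, was at 10.1, 11.9 and 14.3 CPM in fl/fl and at 11.1, 16.7 and 19.2 CPM in iADKO. In 4 of 6 iADKO mice it lay above the highest control. The log2 fold change was 0.37 (standard error 0.12, 95% interval 0.12 to 0.63, adjusted p = 0.0302). It passed in 6 of 13 fits with 1 mouse left out and not without fl/fl 1, 2 or 3 or iADKO 1, 3, 4 or 5 (highest adjusted p = 0.0743). Nor did it pass with the replicate number as a block and fl/fl 7, which has no partner, left out (0.35, adjusted p = 0.0557), or with the run of library numbers as a block (0.15, adjusted p = 0.575). Within the runs of library numbers that hold both genotypes its log2 ratios were 0.10 and 0.21. Of 6 Schwann cell markers, 1 (*Erbb3*) was higher (14.1% of all genes were), and limma on the deposited log2 values called 0. The summed level of these markers was 86.2 to 99.2 CPM in fl/fl and 89.8 to 118 CPM in iADKO. Their part in the *Col28a1* values was not tested.

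*Col7a1* of anchoring fibrils, with 0.29 as its log2 fold change (adjusted p = 0.484), did not pass. The network chains *Col8a1* and *Col8a2*, known from vessel walls and the cornea, had log2 fold changes of 0.11 (adjusted p = 0.554) and −0.02 (adjusted p = 0.971). *Col8a2* was at 15.3, 23.7 and 31.2 CPM in fl/fl and 6.14, 25.9 and 28.4 CPM in iADKO, with iADKO 6 the lowest of all mice. Of the transmembrane collagens, *Col13a1* was at 0.862, 1.06 and 2.26 CPM and 0.737, 1.30 and 1.54 CPM (0.03, adjusted p = 0.942). *Col23a1* was at 4.67, 5.62 and 7.57 CPM in fl/fl and 5.18, 5.68 and 19.59 CPM in iADKO (0.45, adjusted p = 0.267), and *Col17a1*, the hemidesmosomal collagen of epithelia, differed by 0.36 (adjusted p = 0.508). The top *Col23a1* value was that of iADKO 6, the library with the highest summed level of 7 epithelial markers (270.3 CPM, against 21.8 to 77.3 CPM in the other iADKO and 11.4 to 53.96 CPM in fl/fl). Without iADKO 6 the log2 fold changes of *Col23a1* and *Col17a1* were −0.03 and −0.07.

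The 6 genes too low to test with edgeR were *Col2a1*, *Col11a1*, *Col10a1* (32 reads), *Col19a1* (56), *Col22a1* (54) and *Col25a1* (180). Of the 32 reads of *Col10a1*, the chain of hypertrophic cartilage, 30 came from 1 control, which was at 1.61 CPM. *Col25a1* was at 0.166 to 0.439 CPM in fl/fl and 0.240 to 3.68 CPM in iADKO. DESeq2 called it higher, and its only values above 0.439 CPM were 3.68 in iADKO 5 and 1.47 in iADKO 6.

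On 6 lists of proteins that make, modify, bind, read or degrade collagens, 87 genes were tested, of which 7 (8.05%) were higher and 2 (2.30%) lower. Over all genes these shares were 14.1% and 16.3%. Of 22 genes for folding and modification in the endoplasmic reticulum, 1 was higher and 1 lower. *Colgalt1*, which puts galactose on hydroxylysine, was at 106 to 158 CPM in fl/fl and 126 to 167 CPM in iADKO (log2 fold change 0.28, adjusted p = 0.0345), and passed in 4 of 13 fits with 1 mouse left out (highest adjusted p = 0.0741). *Mia3*, which loads procollagen into transport carriers, was at 147 to 166 CPM and 138 to 148 CPM (−0.14, adjusted p = 0.0263), passed in 7 of 13 such fits and turned to 0.07 on the log2 scale when scaled to total counts. The prolyl hydroxylase *P4ha1* (0.08, adjusted p = 0.580) and the chaperone *Serpinh1* (−0.16, adjusted p = 0.307) did not pass. Of the 13 tested genes for procollagen cleavage and crosslinking, 0 passed edgeR's test in either direction, 0 had an unadjusted p under 0.05 and DESeq2 called 0. They included the lysyl oxidase *Lox* (−0.18, adjusted p = 0.527) and the peptidase *Bmp1* (0.05, adjusted p = 0.777).

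Of 16 fibril-binding proteoglycans and glycoproteins, 1 was higher and 0 lower by edgeR's test (2 and 2 at an unadjusted p under 0.05, 1 and 1 with DESeq2). *Postn*, a matricellular protein that binds type I collagen, was at 269, 326 and 366 CPM in fl/fl and 339, 403 and 507 CPM in iADKO (log2 fold change 0.33, adjusted p = 0.0180). Of 16 basement membrane partners, 0 were higher and 1 was lower by edgeR's test (2 and 3 at an unadjusted p under 0.05, 0 and 3 with DESeq2). The lower one was *Pxdn*, the peroxidase that crosslinks type IV collagen, at 343, 412 and 499 CPM in fl/fl and 307, 321 and 355 CPM in iADKO (−0.37, adjusted p = 0.00659). The laminin *Lamc1* (−0.14, adjusted p = 0.236), *Nid1* (−0.25, adjusted p = 0.1497) and perlecan *Hspg2* (−0.21, adjusted p = 0.0954) had values below 0 that did not pass. The median of this list was −0.10, and it was 0.11 when scaled to total counts.

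Of 9 tested collagen receptors, 2 were higher and 0 lower by edgeR's test (2 and 1 at an unadjusted p under 0.05, 2 and 0 with DESeq2). *Lair1*, the inhibitory collagen receptor of leukocytes, was at 14.6, 16.1 and 31.2 CPM in fl/fl and 22.1, 32.9 and 37.7 CPM in iADKO (log2 fold change 0.72, adjusted p = 0.0119), and that of the integrin chain *Itga2* was 0.51 (adjusted p = 0.0468). *Itga2* was at 3.37, 4.35 and 5.32 CPM in fl/fl and 4.46, 5.62 and 9.62 CPM in iADKO. The value of 9.62 CPM was that of iADKO 6, and the next highest iADKO value was 6.26 CPM. With 1 mouse left out, *Lair1* passed in 13 of 13 fits and *Itga2* in 5. Of 11 collagen-degrading proteases, 3 were higher and 0 lower by edgeR's test (4 and 0 at an unadjusted p under 0.05, 3 and 0 with DESeq2). The higher ones were the neutrophil collagenase *Mmp8* (1.75, adjusted p = 0.0390), the macrophage elastase *Mmp12* (1.22, adjusted p = 0.0456) and the gelatinase *Mmp9* (0.49, adjusted p = 0.0152). These are 27.3% of the list, against 14.1% of all genes higher (30.5% called in either direction). The median log2 fold change of the list was 0.29, against 0.03 over all genes. With 1 mouse left out, 1 to 5 of the list were higher, the most without fl/fl 5. *Mmp9* passed in 13 of 13 such fits, *Mmp8* in 4 and *Mmp12* in 3 (highest adjusted p = 0.0979 and 0.0952). Without a filter on low counts 1 was higher, and *Mmp8* and *Mmp12* did not pass (adjusted p = 0.104 and 0.113). *Mmp12* was at 40.1, 69.8 and 272 CPM in fl/fl and 163, 253 and 406 CPM in iADKO. *Mmp9* was at 38.1, 53.7 and 65.3 CPM in fl/fl and 56.7, 73.3 and 87.1 CPM in iADKO. *Mmp8* was low, at 0.116, 1.72 and 6.43 CPM in fl/fl and 3.03, 7.90 and 16.5 CPM in iADKO, with 2 reads in the lowest library. *Mmp2* (0.15, adjusted p = 0.466) and *Mmp14* (0.29, adjusted p = 0.404), the gelatinase and collagenase of stromal cells, did not pass. Of the 9 macrophage markers 8 were higher in the same libraries, and their part in the values of *Lair1*, *Mmp9* and *Mmp12* was not tested.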

How the data were processed

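Raw counts per gene for 13 libraries of whole pmWAT, without normalization, and DESeq2 regularized log (log2) values were deposited by the authors. The submitters' processing notes name FastQC 0.12.1, STAR 2.7.11a, DESeq2 and mm39. The counting tool, its strand setting and the annotation are not given in the sources used here. Gene names and coordinates were taken from GENCODE M39 on GRCm39 (33184 of 33618 identifiers found). All samples carry the same batch label. Replicate numbers and groups follow the titles.

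In R 4.3.3, genes passing filterByExpr were normalized by TMM and compared by edgeR 4.0.16's robust quasi-likelihood test. The code was run on simulated data with larger changes, in fewer genes, than seen here. That run therefore does not bear on the collagen calls. Standard errors were derived from the log2 fold change and the F statistic. Ratios were compared by exact permutation over all splits (smallest p = 0.000583). The SD describe the spread between mice, which includes counting error. The 95% intervals describe the uncertainty of the estimated log2 fold change between genotypes and are not ranges of mice. The alternatives were DESeq2 1.42.0 size factors and Wald test, other filters on low counts, limma 3.58.1 on the deposited log2 values, blocks by replicate number and by runs of library numbers, TMM factors without collagen genes, canonical transcript lengths and each mouse left out. Leaving out fl/fl 5 with iADKO 6, scaling to total counts and canonical lengths were chosen after seeing the data.

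Named with their levels were the main chains, the genes past the threshold and the 3 tested genes above 1 CPM with the highest adjusted p (*Col1a1*, *Col8a2*, *Col13a1*). So were, from each pathway list, the up to 4 genes past the threshold with the largest changes. The other named genes were picked after their values were seen. The collagen genes and the lists of partners and markers were chosen with earlier results of these data known. Libraries of the same genotype differed by more than sampling noise (chi-square over its degrees of freedom 8.90 to 98.7 in 36 pairs).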

Additional observations from a re-analysis of the deposited data

Results flagged for a closer look

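In 16 of 70 groups of mice (35 genes in each genotype), 1 mouse stood apart from the others by Dixon's test at 95%, where chance alone flags about 1 in 20. Of these, 6 were values of iADKO 6 and 4 of fl/fl 5.

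In iADKO 6, 5 genes stood below the other iADKO mice. *Col1a2* was at 750.5 CPM (others 1339.6 to 1579), *Col5a2* at 168 CPM (258 to 305), *Col6a1* at 679 CPM (931 to 1029), *Col6a2* at 497 CPM (698 to 812) and *Col13a1* at 0.737 CPM (1.27 to 1.54). *Col23a1* stood above them at 19.59 CPM (5.18 to 6.69).

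In fl/fl 5, 4 genes stood above the other controls. *Col24a1* was at 30.9 CPM (others 2.15 to 12.9), *Col4a5* at 71.0 CPM (22.4 to 41.3), *Col6a5* at 111 CPM (16.3 to 44.0) and *Col6a6* at 69.3 CPM (27.1 to 42.7).

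In fl/fl 4, *Col6a4* was at 24.5 CPM (2.68 to 9.24), *Col4a3* at 9.18 CPM (2.59 to 4.91) and *Col13a1* at 2.26 CPM (0.862 to 1.27). *Col5a1* was at 293 CPM in fl/fl 6 (335 to 366), *Col12a1* at 72.7 CPM in fl/fl 7 (18.7 to 28.9) and *Col6a4* at 13.7 CPM in iADKO 1 (2.69 to 5.13).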

How the results depend on the processing

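DESeq2's Wald test called 3 collagen genes higher (*Col25a1*, *Col27a1*, *Col28a1*) and 4 lower (*Col4a1*, *Col4a2*, *Col5a3*, *Col15a1*). The higher ones were 1 fibrillar and 2 other genes, and the lower ones 1 fibrillar, 2 type IV and 1 other gene. The same test called 5 pathway genes lower. It tested 39 collagen genes, and 27% of all genes passed. Without a filter on low counts, 4 pathway genes were higher and 1 lower (11.9% of all genes called). Whether the labels' replicate numbers pair the mice was not settled (residual correlations −0.0265 to 0.217, 3 of 6 pairs above 0.1, 2 of 6 iADKO mice closest to their own number). The replicate block could only be set with fl/fl 7 left out, since no iADKO mouse has its number. That fit had 2 collagen genes higher (both fibrillar, 0 of other types) and 3 lower (2 type IV, 1 other), with 5 pathway genes lower, where leaving out fl/fl 7 without a block gave 2 and 1 collagen genes. Of all genes, 29% passed with the block and 30.4% without it. The log2 difference in the *Col4a1*/*Col4a2* ratio was 0.10 with the block (adjusted p = 0.188, exact permutation). Its 6 pairs allow no p below 0.03125, and 0.188 is the smallest adjusted value for a single ratio among 6, so this test says nothing about stability. With runs of library numbers as a block, 40 genes in all were higher and 14 lower, and 0 collagen and 0 pathway genes passed edgeR's test in either direction (1 collagen gene higher and 1 lower at an unadjusted p under 0.05). Only the runs 722 to 727 and 747 to 750 hold both genotypes, so this block compares the genotypes within these runs alone. Without fl/fl 5 and iADKO 6, 5 collagen genes were higher (1 fibrillar, 1 type IV, 3 other) and 4 lower (1 fibrillar, 2 type IV, 1 other), with 21 pathway genes higher and 5 lower. Scaled to total counts, 7397 genes were higher and 1276 lower, 9 collagen genes were higher (2 fibrillar, 7 other) and 0 lower, and 33 pathway genes were higher and 0 lower. The cause of these differences was not tested.

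With 1 mouse left out, 1 to 4 collagen genes were higher and 0 to 4 lower, where 23.9% to 39.7% of all genes passed. By class, 1 to 2 fibrillar genes were higher and 0 to 1 lower, 0 to 2 type IV genes lower, 0 to 2 other genes higher and 0 to 1 lower. Of pathway genes, 3 to 14 were higher and 1 to 3 lower. The most collagen genes passed without fl/fl 5 (4 higher, 4 lower), and pathway genes were at 14 higher without it and 13 without iADKO 6. Of all genes, 39.7% passed without fl/fl 5 and 34% without iADKO 6. The log2 difference in the *Col4a1*/*Col4a2* ratio was 0.076 to 0.10.

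Of the 35 genes, 17 kept their sign under every alternative and 19 passed under none. The log2 fold changes that turned were past the threshold in no such fit. With the replicate block and fl/fl 7 left out they were *Col13a1* −0.016, *Col6a2* −0.027, *Col12a1* 0.19 and *Col1a1* 0.058, and all 4 also turned with fl/fl 7 left out and no block. With the library-number block they were *Col3a1* −0.071, *Col1a2* −0.082, *Col13a1* −0.13, *Col6a2* −0.084, *Col6a1* −0.0064, *Col12a1* 0.092, *Col6a6* −0.014 and *Col14a1* −0.065. Without fl/fl 5 and iADKO 6 they were *Col5a2* 0.067, *Col4a4* 0.022, *Col8a2* 0.25, *Col23a1* −0.067, *Col1a1* 0.18, *Col8a1* −0.038 and *Col17a1* −0.16. Scaled to total counts they were *Col5a2* 0.14, *Col4a4* 0.052, *Col4a3* 0.063, *Col8a2* 0.18, *Col12a1* 0.0078, *Col1a1* 0.19 and *Mia3* 0.066. With limma, *Col5a1* was at −0.0060.

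With 1 mouse left out, the log2 fold changes that turned in at least 1 fit ran over *Col3a1* −0.0059 to 0.18, *Col5a2* −0.11 to 0.035, *Col4a4* −0.27 to 0.019, *Col4a3* −0.26 to 0.077, *Col5a1* −0.028 to 0.11, *Col24a1* −0.083 to 0.91, *Col8a2* −0.10 to 0.18, *Col1a2* −0.00013 to 0.18, *Col13a1* −0.044 to 0.24, *Col6a2* −0.017 to 0.12, *Col12a1* −0.28 to 0.20, *Col23a1* −0.035 to 0.56, *Col1a1* −0.093 to 0.12 and *Col17a1* −0.071 to 0.55. Depth limits the genes under about 1 CPM, for which a mouse had few reads, and all values rest on 7 and 6 mice of 1 sex and 1 time point.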
